A study of Mus musculus with 11 samples.

Results

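The regions described here are stretches of open chromatin in the mouse esophagus that had a called interval in 0 of 3 K5SmoM2Sox9cKO libraries, in 3 of 3 K5SmoM2 libraries and in 0 of 3 WT libraries. Of 124941 regions merged from 11 interval lists, 1155 met this pattern. That is 0.924% of the regions. The members were chosen by these values, so their presence in K5SmoM2 and absence from both other adult groups is the definition and not a result. "Open" means here that the authors' caller placed an interval over the region in that library. A region with no interval may still hold signal under the caller's threshold.

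Cells were sorted from digested tissue and profiled by ATAC-seq, in which a transposase cuts and tags accessible DNA. The K5SmoM2Sox9cKO group (genotype Krt5-SmoM2-Sox9fl/fl, 3 libraries) and the K5SmoM2 group (Krt5-SmoM2, strain CD1, 3 libraries) were both sorted for high EpCAM, an adhesion protein of epithelial cells. The Embryo group (2 libraries) came from embryonic day 13 esophagus of Krt8YFP mice, sorted on the reporter. The WT group (wild type, strain CD1, 3 libraries) was sorted for low EpCAM. The labels give no strain for K5SmoM2Sox9cKO or Embryo, no age for the adult mice, no sex, no method of recombination and no statement that replicates are separate animals. Genotype and EpCAM gate cannot be told apart in any comparison with WT, whereas the gate was the same in K5SmoM2Sox9cKO and K5SmoM2.

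SmoM2 is an active form of Smoothened, the membrane protein that passes the Hedgehog signal to the Gli transcription factors. Krt5 is a keratin of basal cells in stratified epithelia such as the esophagus. Sox9 is an HMG-box transcription factor that binds the minor groove of DNA, is needed for cartilage and for hair follicle stem cells, and can open closed chromatin in the skin. Open regions away from gene ends are often enhancers, the elements through which such factors act on distant genes.

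Few of the 1155 regions were promoters, and those that were are the ones whose sequence can be shown. Of the 1155 regions, 18 (1.56%) overlapped one of 32619 promoter windows of RefSeq (GRCm38.p6), which run from 250 bases before to 50 after a start site. This share was 1.70% in the regions gained in K5SmoM2 and open in 3 of 3 K5SmoM2Sox9cKO libraries, 23.9% in those open in all 9 adult libraries and 10.4% in all regions. The windows of 3 genes follow, for Pdgfd and Grip1, which are among the genes with the most of these regions, and for Wdr17, the named gene whose window was covered whole. Each reads 5′ to 3′ on the gene's strand, with the bases inside the region in capitals.
Pdgfd: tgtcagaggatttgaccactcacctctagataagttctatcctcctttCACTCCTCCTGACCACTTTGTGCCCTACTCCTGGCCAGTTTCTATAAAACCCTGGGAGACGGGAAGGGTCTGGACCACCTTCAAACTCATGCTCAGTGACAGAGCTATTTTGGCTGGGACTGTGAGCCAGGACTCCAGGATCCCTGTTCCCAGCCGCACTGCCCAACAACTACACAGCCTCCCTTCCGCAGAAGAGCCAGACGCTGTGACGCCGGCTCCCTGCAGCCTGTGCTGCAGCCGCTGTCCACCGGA
Grip1: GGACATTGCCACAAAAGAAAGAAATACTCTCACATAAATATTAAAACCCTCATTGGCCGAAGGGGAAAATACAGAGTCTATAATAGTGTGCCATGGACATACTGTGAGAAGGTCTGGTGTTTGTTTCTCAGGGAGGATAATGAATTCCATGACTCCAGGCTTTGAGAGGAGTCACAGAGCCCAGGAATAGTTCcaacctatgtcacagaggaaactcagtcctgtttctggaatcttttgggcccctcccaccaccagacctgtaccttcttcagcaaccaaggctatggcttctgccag
Wdr17: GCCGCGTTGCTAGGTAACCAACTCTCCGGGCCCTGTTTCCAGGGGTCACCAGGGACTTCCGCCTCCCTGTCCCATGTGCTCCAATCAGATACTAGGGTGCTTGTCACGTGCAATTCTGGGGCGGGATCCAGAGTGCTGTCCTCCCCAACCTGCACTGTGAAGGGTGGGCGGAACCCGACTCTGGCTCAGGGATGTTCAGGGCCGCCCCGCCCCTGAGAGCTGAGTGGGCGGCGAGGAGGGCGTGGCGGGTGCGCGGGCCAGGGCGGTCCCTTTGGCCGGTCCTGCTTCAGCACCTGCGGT

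The Pdgfd window lies at chr9:6168236-6168535 on the plus strand, and the region chr9:6168284-6169668 covers 252 of its bases and its start site. It held 1 match to ACAAAG, a form of the Sox motif, inside the capitals. The Grip1 window, chr10:119992672-119992971 on the plus strand, was covered over 193 bases, short of the start site, and held no match to any motif searched. The Wdr17 window, chr8:54724319-54724618 on the minus strand, was covered over all 300 bases and held 6 matches to GGGCGG, the Sp/Klf motif. The other named genes at such a window were Apcs, Gria4, Esp1, Defb6 and Lims1, and the remaining windows belonged to unnamed predicted genes. On either strand, ACAAAG was found in 4 of the 19 windows overlapped (21.1%), against 18.7% of all windows, and AACAAT, the other Sox form, in 2 (10.5%) against 10.6%. GGGCGG was found in 2 (10.5%), against 35.9% of all windows, and TGANTCA, the AP-1 motif, in 3 (15.8%), against 7.85%. GACCACCCA, the Gli motif, was in 0 of the 19 windows and in 0.254% of all. The other motifs searched were TGTTTAC (1 window, 5.26%, against 3.67% of all) and TGTTTGC (2, 10.5%, against 5.08%), both forkhead forms, GGAATG of Tead (5, 26.3%, against 14.6%) and TGTGGT of Runx (3, 15.8%, against 16.6%). A pair of Sox sites facing each other, ACAAT and ATTGT with 3 to 5 bases between, was in 0 of the 19 windows and in 0.0981% of all. Matches were counted over the whole window, so some lie outside the region. The 2 windows with TGTTTGC, at Gria4 and at a predicted gene on the other strand, overlap and share 1 site, which lies outside the region. With 19 windows these shares are descriptions. Matches at the members away from promoters were not analysed here.

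Of the 8637 regions (6.91%) that were open in 3 of 3 K5SmoM2 and 0 of 3 WT libraries, the 1155 made up 13.4%. A further 1466 (17.0%) were open in 1 K5SmoM2Sox9cKO library, 2139 (24.8%) in 2 and 3877 (44.9%) in 3. The last set, called the kept regions below, is the set against which the 1155 are described. Without the condition on WT, 1668 regions (1.34%) were open in 0 of 3 K5SmoM2Sox9cKO and 3 of 3 K5SmoM2 libraries, and 186 of these were open in 3 of 3 WT. The mirror pattern, open in 3 of 3 K5SmoM2Sox9cKO and in 0 of 3 of both K5SmoM2 and WT, held 251 regions.

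The 1155 regions were weak in the lists in which they were called. Intervals were ranked within each list by the authors' −log10 p-value, from 0 for the strongest to 1 for the weakest. The mean rank over the 3 K5SmoM2 lists had a median of 0.745 in the 1155 regions, with quartiles of 0.638 and 0.827, and of 0.510 in the kept regions. It stood between these values, at 0.722 and 0.657, where 1 or 2 K5SmoM2Sox9cKO libraries were open. The median fold enrichment, which the authors' caller gives over local background, was 4.35, 4.06 and 4.24 in K5SmoM2 1 to 3 for the 1155 regions. It was 5.99, 5.03 and 6.14 for the kept regions and 6.99, 6.55 and 7.42 for the 44519 regions open in all 9 adult libraries. Among the gained regions with mean rank under 0.2, 2 of 232 (0.862%) belonged to the 1155 and 92.7% to the kept regions. With mean ranks over 0.8 the shares were 28.6% and 15.8%. These values come from the K5SmoM2 lists that chose the regions, so they are given without a test. How far the absence from K5SmoM2Sox9cKO reflects the caller's threshold was not tested.

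**Figure D1:**
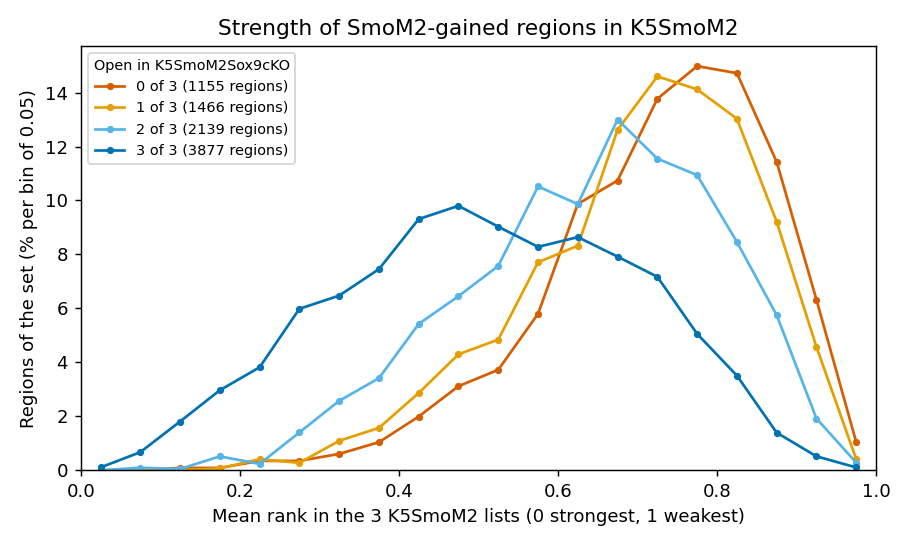
Regions gained in K5SmoM2, split by the number of K5SmoM2Sox9cKO libraries in which they were open. The x axis is the mean rank in the 3 K5SmoM2 lists (0 strongest, 1 weakest) and the y axis the percent of each set per rank bin of 0.05. The curve of the 1155 regions with 0 of 3 lies farthest to the weak end and that of the 3877 kept regions nearest the strong end.

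The choice can be read in a library that took no part in it, by applying the rule to 8 adult libraries and looking at the ninth. Without K5SmoM2Sox9cKO 1, the rule chose 1760 regions, of which 34.4% were open in that library, against 73.4% of the gained regions chosen with no condition on its group. Without K5SmoM2Sox9cKO 2 it chose 1932 regions and these shares were 40.2% and 76.4%, and without K5SmoM2Sox9cKO 3 it chose 1239 and they were 6.78% and 51.5%. In each of the 3 cases the share in the left-out K5SmoM2Sox9cKO library lay below the share without the condition. The left-out library still took away between 6.78% and 40.2% of the regions that the other two libraries had chosen. In K5SmoM2 libraries left out in turn the rule chose 1757, 2439 and 1469 regions, and 65.7%, 47.4% and 78.6% of the chosen regions were open, against 37.8%, 20.6% and 40.9% without a condition on K5SmoM2. In WT libraries left out, 2.70%, 6.93% and 4.15% were open, against 17.0%, 24.2% and 21.5%. The 15150 regions without a condition on K5SmoM2 include 4618 open in no adult library, which lowers their shares. Each condition uses the other libraries of the same group. The directions therefore describe agreement between replicates and do not test the choice.

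**Figure D2:**
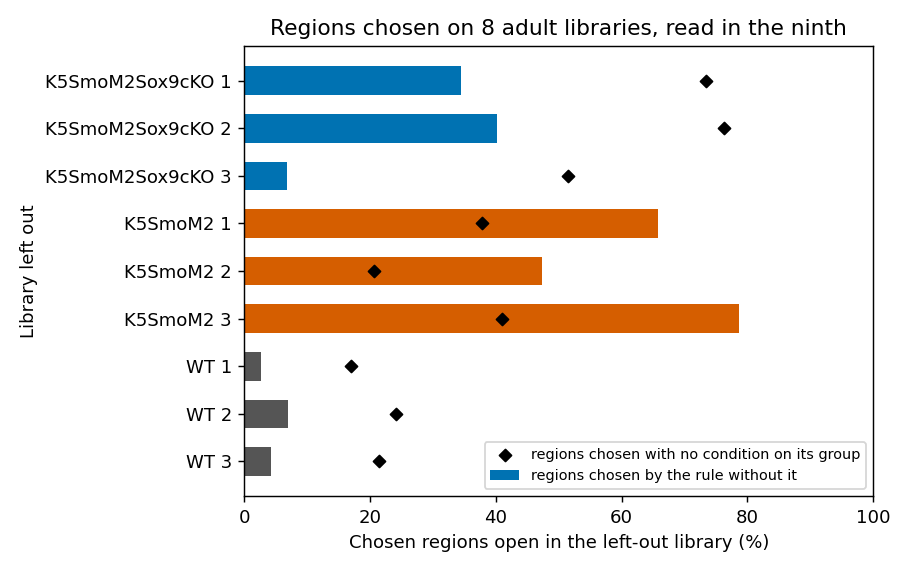
Regions chosen by the rule on 8 adult libraries, read in the ninth. Bars give the percent of chosen regions open in the library left out, coloured by group (blue K5SmoM2Sox9cKO, orange K5SmoM2, grey WT), and diamonds the percent when regions were chosen with no condition on that library's group. Bars lie below the diamonds for K5SmoM2Sox9cKO and WT and above them for K5SmoM2. The rule uses other libraries of the same group, so these directions are not a test.

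Near the limits of the rule, the values inside and outside were alike in size. The members with the lowest −log10 q-value in any K5SmoM2 list lay in Cpn1 (1.31), in Stk11 (1.33), at a site with no gene within 100 kb (1.33), in Upk3bl (1.34) and in Rap1gap2 (1.34). Just outside the rule, regions with a single open K5SmoM2Sox9cKO library had −log10 q-values there of 1.31 near Hopx, 1.32 in Cdc14a, 1.34 in Cpt2, 1.35 in Tcf12 and 1.36 in Epb41l4b. Over the 1155, the lowest of the 3 K5SmoM2 values had a median of 3.46. In the 1466 regions with 1 open K5SmoM2Sox9cKO library, the value there had a median of 4.11. The first median is of the lowest of 3 values and the second of a single value, so they are not comparable. Of the 1155, 318 (27.5%) had a −log10 q-value of at least 5 in all 3 K5SmoM2 lists. The weakest by mean rank lay in Stk11 (a kinase of energy sensing), Acsm1, Mb (myoglobin) and Cep350 and at a site with no gene within reach, with mean ranks from 0.966 to 0.998.

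A small part of the 1155 was strong. Their mean rank was under 0.5 in 88 (7.62%), and 128 had a fold enrichment of at least 5 in all 3 K5SmoM2 lists. The strongest lay 20618 bp from Ear1, one of a family of eosinophil ribonuclease genes, at chr14:43840257-43841506, with fold enrichments of 11.1, 9.91 and 9.43 in K5SmoM2 1 to 3. The next lay on chromosome 13 with no protein-coding gene within 100 kb, at chr13:10636658-10637420, with 8.16, 12.7 and 12.5. Others among the 10 strongest were 26989 bp from Ear10 (chr14:43895027-43895909; 10.1, 6.29 and 6.80), within Ptprt, a receptor tyrosine phosphatase (chr2:161979704-161980793; 8.24, 9.33 and 13.3), and 92988 bp from Chrm3, a muscarinic acetylcholine receptor (chr13:10454050-10455139; 10.5, 7.48 and 9.88). Of these 10 regions, 6 had no gene within reach, 3 of them on chromosome 13 and 3 on chromosome 4.

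The 1155 regions were narrower than the kept regions, with a median width of 555 bp (quartiles 439 and 736) against 790 bp, and their summits in the 3 K5SmoM2 lists lay a median of 105 bp apart against 82 bp. They lay far from gene ends. Of the 1155, 41 (3.55%) were within 1 kb of an end of a protein-coding gene, against 3.61% of the kept regions, 27.3% of the regions open in all 9 adult libraries and 13.6% of all regions. The median distance to a gene end was 50768 bp, against 36935 bp for the kept regions. Gene bodies held 579 (50.1%), against 50.9% of the kept regions. No gene lay within 100 kb of 268 (23.2%), against 16.3% of the kept regions and 10.4% of all regions.

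The 1155 regions were spread unevenly along the genome. Chromosome 13 held 108 of them among 6142 regions (1.76%), and chromosomes 10, 1 and 3 had 1.33%, 1.25% and 1.20%. The lowest shares were 0.506% on chromosome 7 and 0.503% on the X chromosome. The kept regions made up 3.37% of the regions on chromosome 13, against 3.10% of all regions. In stretches of 10 Mb with at least 100 regions (261 stretches), the median share of the 1155 was 0.746%. The highest was 8.41% (26 of 309 regions) between 10 and 20 Mb of chromosome 13, where kept regions made up 2.91%. In that stretch the percent of regions open was 49.5, 46.6 and 41.1 in K5SmoM2Sox9cKO, 66.3, 61.5 and 68.6 in K5SmoM2, 19.1 and 10.03 in Embryo and 38.5, 46.0 and 43.4 in WT. K5SmoM2 libraries were thus higher than both other adult groups without overlap there, in a count that includes the chosen regions. Over the whole of chromosome 13 the percent open was 63.9, 58.7 and 55.6 in K5SmoM2Sox9cKO, 63.3, 61.2 and 70.3 in K5SmoM2 and 52.2, 59.2 and 58.9 in WT. In the stretch K5SmoM2 was thus close to its share on the chromosome, and K5SmoM2Sox9cKO and WT were lower than theirs. The labels give no strain for K5SmoM2Sox9cKO, and whether the groups' DNA differs in this stretch was not tested. The 3 of the 1155 at Gli3 lie in it, as do the 5 at Chrm3. The next highest shares were 6.31% at 0 to 10 Mb of chromosome 9, where Pdgfd lies, and 5.10% at 100 to 110 Mb of chromosome 10, where Kitl lies. The stretches were looked at after the chromosome counts were seen.

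Some of the 1155 lay in groups. With neighbours joined when less than 50 kb apart, 217 (18.8%) had another of the 1155 beside them, and 38.0% of the 3877 kept regions had another kept region beside them. The sets differ in size, so these shares are not comparable. The largest group was 9 regions at chr13:10526588-10691490, in the stretch just described and beyond Chrm3, with no protein-coding gene within 100 kb of any of the 9. Of the 14 regions of any kind in that span, 0, 0 and 0 were open in K5SmoM2Sox9cKO, 11, 9 and 12 in K5SmoM2, 0 and 0 in Embryo and 0, 0 and 0 in WT. Counts for this span and those below include the chosen regions, whose pattern in the adult groups is the definition. The 9 had median fold enrichments of 7.49, 8.07 and 7.74 in K5SmoM2 1 to 3, against 4.35, 4.06 and 4.24 over the 1155. A group of 6 lay at chr14:43834199-43925866 by Ear1 and Ear10, with 1, 1 and 0 of 10 regions open in K5SmoM2Sox9cKO, 10, 8 and 7 in K5SmoM2, 1 and 1 in Embryo and 0, 1 and 0 in WT. Its median fold enrichments were 9.84, 6.19 and 7.74 in K5SmoM2. A group of 5 lay in and beside Nxph1, a secreted ligand of neurexins (chr6:8924418-9004342), with 0, 0 and 0 of 8 regions open in K5SmoM2Sox9cKO, 8, 6 and 5 in K5SmoM2, 2 and 0 in Embryo and 0, 1 and 1 in WT. In the span of a group of 4 beside Fam78b (chr1:166931814-166949316) there were no other regions, and these were closed in Embryo too. Groups of 4 in Syt16 and in Ugt8a lay among other regions that were partly open in K5SmoM2Sox9cKO, with 3, 3 and 3 open in Syt16 and 3, 1 and 1 in Ugt8a, of 10 regions each.

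Regions around the 1155 that were not themselves among them were examined in each library. Within 5 kb there were 670 such regions, of which 54.5%, 51.2% and 43.7% were open in K5SmoM2Sox9cKO, 61.8%, 59.7% and 68.1% in K5SmoM2 and 43.1%, 48.8% and 47.9% in WT. K5SmoM2Sox9cKO and WT overlapped, and K5SmoM2 was above both. Over all regions the percent open was 64.5, 59.2 and 57.5 in K5SmoM2Sox9cKO, 61.9, 59.0 and 68.3 in K5SmoM2 and 53.4, 60.6 and 59.7 in WT. K5SmoM2 near the 1155 was thus close to its share over all regions, and K5SmoM2Sox9cKO and WT lay below theirs. Around the kept regions, where 2885 regions lay within 5 kb, the percent open was 65.8, 62.3 and 55.3 in K5SmoM2Sox9cKO, 61.4, 60.7 and 71.4 in K5SmoM2 and 50.3, 57.0 and 55.4 in WT, so K5SmoM2Sox9cKO overlapped both K5SmoM2 and WT there. At 50 to 100 kb from the 1155 the values were 65.1%, 60.7% and 56.6% in K5SmoM2Sox9cKO, 65.1%, 61.2% and 71.3% in K5SmoM2 and 52.1%, 58.9% and 57.1% in WT, and K5SmoM2Sox9cKO overlapped both other groups. The neighbours of the 1155 within 25 kb included 176 kept regions (4.87%, against 3.10% of all regions) and 1175 regions open in all 9 adult libraries (32.5%, against 35.6%). A kept region lay within 50 kb of 259 of the 1155 (22.4%). The neighbours were not part of the rule, but they lie beside regions chosen to be open in K5SmoM2, and no test was made.

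**Figure D3:**
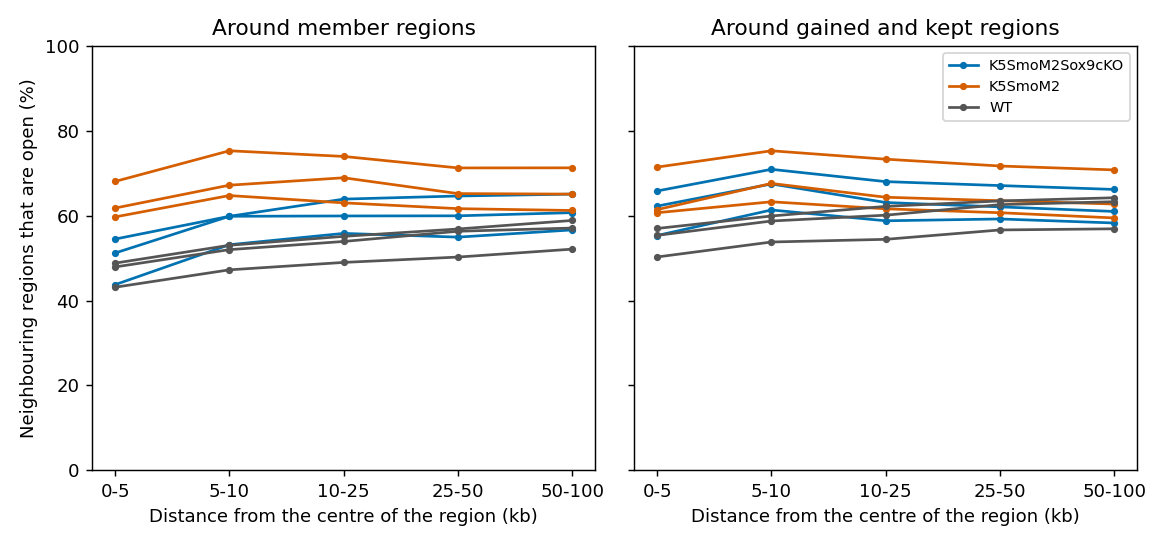
Neighbouring regions that were open, in percent, by distance in kb from the centre of the 1155 regions (left) and of the kept regions (right), with 1 line per adult library. Within 5 kb of the 1155 regions K5SmoM2Sox9cKO 3 (43.7%) lies among the WT lines (43.1% to 48.8%). K5SmoM2Sox9cKO 1 and 2 (54.5% and 51.2%) lie above them. Around the kept regions the K5SmoM2Sox9cKO lines overlap both the K5SmoM2 and the WT lines.

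Embryo libraries took no part in the choice. Of the 1155 regions, 56 (4.85%, Wilson 95% interval 3.75% to 6.24%) were open in at least 1 Embryo library, against 192 of the kept regions (4.95%, 4.31% to 5.68%), 38.1% of the regions open in all 9 adult libraries and 21.1% of all regions. The intervals of the 1155 and of the kept regions overlapped widely, and they cover counting error only. The Embryo lists were short, with 24927 and 14281 intervals, against 69116 to 87966 in the adult lists. Both Embryo libraries were open at 15 of the 1155. Among these were the region beyond Chrm3, with fold enrichments of 3.73 and 4.39 in Embryo, one 1336 bp from Ear10 (6.64 and 3.73) and one within Dip2b (8.67 and 7.74). Dip2b had the highest Embryo values among the 10 of these regions with the strongest ranks. Others lay within Zmat3, a p53 target, within Carmil1, within Igf1r, a growth factor receptor, within Stpg2, near Speer4c and near Mex3b.

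Of the 1155, 887 had a protein-coding gene within 100 kb and were counted for the closest one, and 735 of 17853 gene loci with any region held at least 1 (4.12%). A single region was held by 633 loci, 2 by 70 loci and 3 or more by 32 loci. Loci with a member had a median of 13 regions and a gene length of 91.4 kb, against 3 regions and 21.7 kb over all loci, so long genes with many regions had more chances to hold one.

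The highest number was 5, held by 3 loci. Counts of open regions at these loci include the chosen ones. In Chrm3, 2, 2 and 1 regions of any kind were open in K5SmoM2Sox9cKO, 13, 11 and 16 in K5SmoM2, 5 and 3 in Embryo and 1, 2 and 1 in WT. In Nxph1, 0, 0 and 0 were open in K5SmoM2Sox9cKO, 8, 6 and 5 in K5SmoM2, 2 and 0 in Embryo and 0, 1 and 1 in WT. In Ugt8a, the enzyme that makes the galactolipid of myelin, 7, 4 and 4 were open in K5SmoM2Sox9cKO, 14, 14 and 15 in K5SmoM2, 4 and 1 in Embryo and 0, 1 and 1 in WT. The chosen regions are closed in both K5SmoM2Sox9cKO and WT by definition. Without them, K5SmoM2 had 8, 6 and 11 at Chrm3, 9, 9 and 10 at Ugt8a and 3, 1 and 0 at Nxph1. At Nxph1 K5SmoM2 thus no longer stood apart, and it stayed above both other adult groups at Chrm3 and Ugt8a. In these remaining regions K5SmoM2Sox9cKO overlapped WT at Chrm3 and lay between WT and K5SmoM2 at Ugt8a.

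A further 12 loci held 4 and were ranked by the strength of their members. Pdgfd, a ligand of the PDGF receptor beta, had 1, 5 and 0 open regions in K5SmoM2Sox9cKO, 14, 9 and 11 in K5SmoM2, 2 and 0 in Embryo and 0, 0 and 0 in WT. Fam155a, a subunit of the sodium leak channel NALCN, had 0, 0 and 0 in K5SmoM2Sox9cKO, 9, 6 and 5 in K5SmoM2, 6 and 2 in Embryo and 1, 0 and 1 in WT. Sox5, a SoxD factor that works with Sox9 in cartilage, had 17, 17 and 13 in K5SmoM2Sox9cKO, 29, 22 and 27 in K5SmoM2, 11 and 4 in Embryo and 10, 17 and 13 in WT. For Pdgfd, Fam155a and Sox5 the K5SmoM2 libraries stood above both other adult groups in these counts, and K5SmoM2Sox9cKO overlapped WT. Without the chosen regions K5SmoM2 had 10, 5 and 7 at Pdgfd, against 1, 5 and 0 in K5SmoM2Sox9cKO. At Fam155a it had 5, 2 and 1, against 1, 0 and 1 in WT, so at both loci K5SmoM2 no longer stood apart. At Sox5 it had 25, 18 and 23 and remained above both groups. Kcnb2, a voltage-gated potassium channel, had 5, 8 and 2 in K5SmoM2Sox9cKO, 13, 12 and 13 in K5SmoM2, 2 and 0 in Embryo and 0, 2 and 1 in WT. Nrxn3, a synaptic adhesion protein, had 26, 13 and 18 in K5SmoM2Sox9cKO, 39, 31 and 28 in K5SmoM2, 4 and 3 in Embryo and 7, 13 and 9 in WT. The others were Syt16, Fam78b, Dpp10, Pam, Esrrg, Mapk10 and Grip1. These counts include the chosen regions, so the height of K5SmoM2 is in part the definition. Without the chosen regions K5SmoM2 had 9, 8 and 9 at Kcnb2, against 5, 8 and 2 in K5SmoM2Sox9cKO. At Nrxn3 it had 35, 27 and 24, against 26, 13 and 18. K5SmoM2 thus no longer stood apart from K5SmoM2Sox9cKO at Kcnb2 and Nrxn3.

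**Figure D4:**
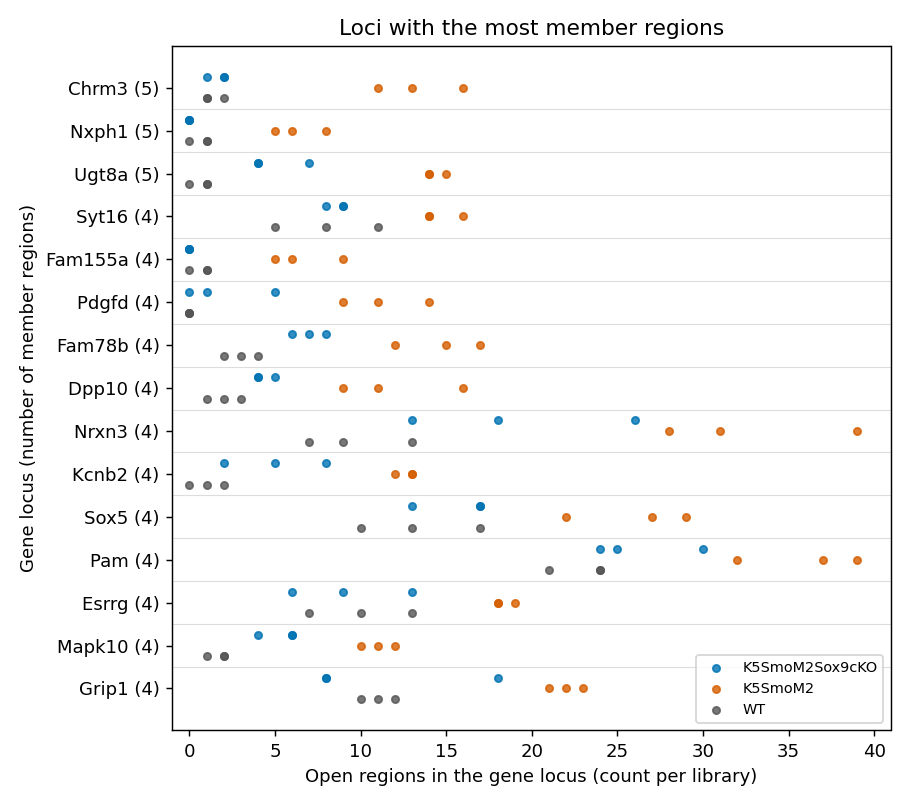
Open regions per library in the 15 gene loci with the most of the 1155 regions (number in brackets). The x axis is the count of open regions in the locus, with 1 point per library and the groups in the order K5SmoM2Sox9cKO, K5SmoM2, WT from top to bottom in each row. In Chrm3, K5SmoM2Sox9cKO had 2, 2 and 1 open regions and K5SmoM2 13, 11 and 16, or 8, 6 and 11 without the chosen regions.

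Gene lists were read for their share of the 1155, beside 887 of 111989 regions (0.792%) over all loci. In the Hedgehog list, 4 of 27 loci held 6 of 308 regions (1.95%). These were 3 at Gli3, a Gli factor that mostly represses, and 1 each at Gas1, a co-receptor, at Bcl2, a survival factor and Gli target, and at Foxc1, a forkhead factor. Gli3, Gas1 and Foxc1 all lie on chromosome 13, and the 3 at Gli3 lie in its stretch with the highest share of the 1155. The strongest at Gli3, at chr13:15691675-15692274, had fold enrichments of 5.55, 7.80 and 7.95 in K5SmoM2. No member was assigned to Ptch1, the Hedgehog receptor, or to Gli1, its usual target gene. Ptch1 held 13, 15 and 14 open regions in K5SmoM2Sox9cKO, 13, 12 and 15 in K5SmoM2, 6 and 3 in Embryo and 8, 11 and 10 in WT. Gli1 held 2, 3 and 3 in K5SmoM2Sox9cKO, 3, 3 and 3 in K5SmoM2, 1 and 1 in Embryo and 2, 2 and 3 in WT.

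Among Sox factors, 2 of 19 loci held 5 of 247 regions (2.02%): 4 at Sox5 and 1 at Sox4, a SoxC factor on chromosome 13. The 4 at Sox5 were also the 4 of 261 regions (1.53%) in the list of cartilage genes bound by SOX9. Sox9 itself held no member. Its locus had 10, 12 and 9 open regions in K5SmoM2Sox9cKO, 9, 10 and 11 in K5SmoM2, 3 and 1 in Embryo and 11, 7 and 9 in WT, with overlap between the adult groups. The labels do not say which part of Sox9 is removed, so these counts do not check the deletion.

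The EGF, FGF, KIT and PDGF list had 9 of 578 regions (1.56%) in 5 of 39 loci. Apart from the 4 at Pdgfd, 2 were inside Kitl, the ligand of Kit, at chr10:100072767-100073683 (fold enrichments 6.04, 5.95 and 5.29) and chr10:100074091-100074572 (3.24, 3.27 and 4.43). One lay 73800 bp from Kit, the receptor, with 3.39, 4.35 and 5.57, and 1 within Igf1r. The Wnt list had 8 of 582 (1.37%) in 7 of 52 loci, including Apc, Wif1, Fzd4 and Dkk3. The strongest of these lay 59444 bp from Wif1, a secreted Wnt antagonist, at chr10:121160086-121161631, with 5.74, 6.48 and 6.15. The axon guidance list had 12 of 757 (1.59%) in 8 of 31 loci, with 3 at Sema3e, 2 each at Robo1 and Robo2 and 1 at Ntn4. The matrix and adhesion list had 7 of 486 (1.44%) in 4 of 45 loci, with 3 at Lama4, a laminin chain, 2 at Cdh11, a mesenchymal cadherin, and 1 each at Col4a1 and Loxl2.

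The BMP and TGF-beta list had 6 of 619 (0.969%), of which 3 were at Bmp6, and the cell cycle list 2 of 250 (0.8%), at Myc and Cdkn2b. Lists of squamous identity were lower. Basal squamous epithelium had 2 of 506 (0.395%), at Dsc3, a desmosomal cadherin, and Grhl3, and squamous differentiation 1 of 241 (0.415%), at Prdm1. The hair follicle and basal cell carcinoma list had 4 of 552 (0.725%), at Nfib, Runx2, Tcf4 and Lhx9, and the Notch list 2 of 303 (0.660%), at Maml3 and Notch2. Krt5, Trp63, Krt8 and Epcam held 0. The endothelial, fibroblast, immune, glial and muscle marker lists held 0 of 123, 97, 38, 71 and 49 regions. These lists are short, so beside 0.792% over all loci a count of 0 says little. Sox5 held 4 of the 5 regions in the Sox list, while the 8 in the Wnt list lay in 7 loci and the 12 in the axon guidance list in 8.

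**Figure D5:**
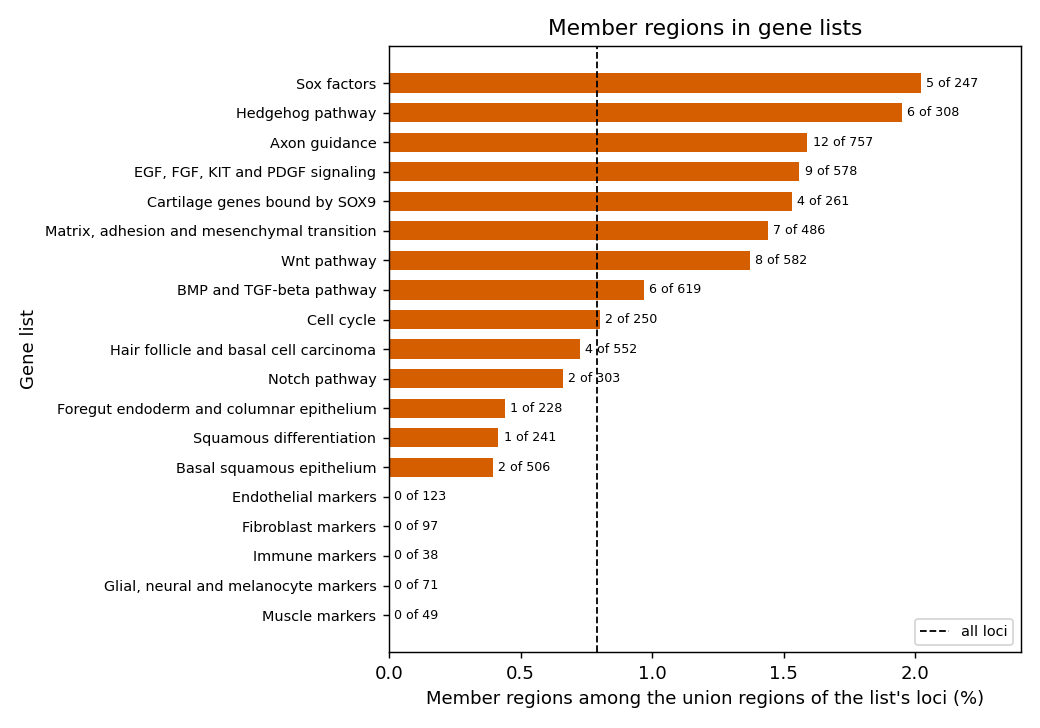
Share of the regions of each gene list's loci that belong to the 1155, in percent, with the counts at the bars and the share over all loci (0.792%) as a dashed line. Sox factors (2.02%) and the Hedgehog pathway (1.95%) have the highest shares. The 5 marker lists of other cell types are at 0, but are short, with 38 to 123 regions each.

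K5SmoM2Sox9cKO was also compared with WT over the remaining regions of each locus. The members are closed in both groups and were left out. This comparison asks whether the loci that hold a member differ elsewhere between K5SmoM2Sox9cKO and WT. These groups differ in SmoM2, in Sox9 and in the EpCAM gate, which cannot be told apart here. Open regions per locus were scaled to the library's total and tested with limma. Over all 15461 loci tested, 631 (4.08%) were higher and 509 (3.29%) lower in K5SmoM2Sox9cKO at a Benjamini-Hochberg adjusted p under 0.05. Among the 674 tested loci with a member, 70 (10.4%) were higher and 25 (3.71%) lower, and the median log2 difference was 0.01, against -0.05 over all loci. Loci with a member hold more regions, and the shares differed by locus size. With 10 to 19 regions per locus, 14.7% of loci with a member were higher, against 7.21% of loci without one, and with 20 or more regions the shares were 10.8% and 7.96%. With 1 to 4 regions they were 1.67% and 2.32%, and with 5 to 9 regions 7.32% and 4.16%. Members were chosen to be open in 0 of 3 WT and 0 of 3 K5SmoM2Sox9cKO libraries. Both groups of this comparison thus took part in the choice of the loci.

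Kit had 4, 5 and 4 open non-member regions in K5SmoM2Sox9cKO, 8, 5 and 8 in K5SmoM2 and 0, 0 and 0 in WT, and was higher in K5SmoM2Sox9cKO than in WT (limma adjusted p = 3.79e-05), with no fold change given against a group at 0. Wif1 had 8, 10 and 4 in K5SmoM2Sox9cKO, 10, 10 and 12 in K5SmoM2 and 1, 1 and 1 in WT, a log2 difference of 2.25 ± 0.25 (SE, limma adjusted p = 0.00155). Ugt8a had 7, 4 and 4 in K5SmoM2Sox9cKO, 9, 9 and 10 in K5SmoM2 and 0, 1 and 1 in WT (2.31 ± 0.36, limma adjusted p = 0.00572). In Kit, Wif1 and Ugt8a the K5SmoM2Sox9cKO libraries were above all WT libraries, with counts so low that the pseudocount helps set the difference. Mapk10, a neuronal JNK kinase, was also higher (1.39 ± 0.20, limma adjusted p = 0.00409), as was Fam78b (1.08 ± 0.19, 0.0109). Bmpr1b, a BMP receptor, was higher (1.06 ± 0.23, limma adjusted p = 0.0262), with 15, 17 and 9 in K5SmoM2Sox9cKO, 19, 16 and 16 in K5SmoM2 and 4, 7 and 7 in WT. Bmp6 (0.59), Runx2 (0.55), Col4a1 (0.54) and Cdkn2b (0.50) were higher by smaller log2 differences, with limma adjusted p-values of 0.0197, 0.00672, 0.0145 and 0.0190. Some of these calls rested on 1 library. That for Bmpr1b was lost without K5SmoM2Sox9cKO 1, K5SmoM2Sox9cKO 2 or WT 1, that for Bmp6 without K5SmoM2Sox9cKO 2, WT 2 or WT 3, and that for Cdkn2b without WT 2. Over the 19 alternative settings the highest limma adjusted p was 0.0989 for Bmpr1b, 0.187 for Bmp6 and 0.657 for Cdkn2b.

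Ltbp1, which holds TGF-beta in the matrix, was lower, with 21, 19 and 18 open non-member regions in K5SmoM2Sox9cKO, 23, 23 and 19 in K5SmoM2 and 29, 34 and 32 in WT (log2 difference -0.75 ± 0.11, limma adjusted p = 0.00510). Several loci with many members did not pass this test. The limma adjusted p was 0.760 for Chrm3, 0.622 for Sox5, 0.0705 for Kcnb2, 0.0743 for Nrxn3, 0.132 for Dpp10 and 0.216 for Pdgfd. Nxph1 and Lama4 had too few remaining regions to be tested, with 0, 0 and 0 open in K5SmoM2Sox9cKO in both. Ptch1, which holds no member, was higher (0.47 ± 0.10, limma adjusted p = 0.0302). Calls for Kit, Ltbp1, Mapk10 and Ugt8a held under all 19 alternative settings tried, and that for Ptch1 under 11, with losses among others without K5SmoM2Sox9cKO 2, K5SmoM2Sox9cKO 3, WT 1 or WT 3 and a highest limma adjusted p of 0.264.

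By list, beside 4.08% higher and 3.29% lower over all loci, 1 of 27 Hedgehog loci was higher (Ptch1) and 1 lower (Cdon), with a median log2 difference of 0.01. Of 49 Wnt loci, 3 were higher (Wif1, Lgr5 and Znrf3) and 2 lower (Fzd8 and Rspo1), with a median of -0.03. Of 43 BMP and TGF-beta loci, 3 were higher (Bmp5, Bmp6 and Bmpr1b) and 3 lower (Bmp4, Tgfb2 and Ltbp1), with a median of -0.05. Of 37 matrix loci, 6 were higher and 2 lower, and of 36 EGF, FGF, KIT and PDGF loci 2 were higher (Kit and Fgf9). Of 18 Sox loci, 1 was lower (Sox11). Of 29 hair follicle and basal cell carcinoma loci, 5 were higher (Runx1, Runx2, Runx3, Cd34 and Zeb2) and 1 lower (Msx2), with a median of 0.05. Markers of other cell types were read in the same comparison, and most of their calls were among the endothelial markers. Of the endothelial markers, 5 of 12 loci were higher (Pecam1, Cdh5, Tek, Emcn and Egfl7) and 1 lower (Esam). Their summed open regions were 84 to 86 in K5SmoM2Sox9cKO, 72 to 88 in K5SmoM2, 5 to 19 in Embryo and 61 to 77 in WT, and none of the 12 was at 0 in all libraries. Of 8 muscle markers tested, 2 were lower (Acta2 and Cnn1), with a median of -0.25 and summed open regions of 21 to 32 in K5SmoM2Sox9cKO, 19 to 30 in K5SmoM2, 1 to 6 in Embryo and 28 to 34 in WT. Actc1, Myf5 and Tagln were at 0 in all libraries. Of 10 fibroblast markers tested, 1 was higher (Twist2), with summed open regions of 48 to 59 in K5SmoM2Sox9cKO, 40 to 51 in K5SmoM2, 6 to 10 in Embryo and 46 to 49 in WT, and Lum at 0. Of 9 glial, neural and melanocyte markers, 1 was higher (Snap25) and 1 lower (Cdh19), with sums of 36 to 45 in K5SmoM2Sox9cKO, 37 to 38 in K5SmoM2, 4 to 10 in Embryo and 28 to 37 in WT. Of 10 immune markers tested, 0 were higher and 0 lower. Immune markers summed to 22 to 25 in K5SmoM2Sox9cKO, 20 to 25 in K5SmoM2, 2 to 5 in Embryo and 16 to 22 in WT, with Lyz2 at 0. The part of other cell types in these differences was not tested.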

How the data were processed

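Sorted esophageal cells were profiled by ATAC-seq in 11 libraries, each with 1 list of called intervals. Per the submitters' processing notes, Trimmomatic, Bowtie2, Picard, MACS2 and deepTools were used with GRCm38/mm10. For versions, roles and settings: not given in the sources used here. The score, the fold enrichment ratio, the −log10 p-value, the −log10 q-value and the summit position of each interval were made by the authors and used as deposited, except the score, which was not used. The fold is the interval's own value and was not compared between libraries as a change in signal. No read numbers were used, depth is therefore unknown, and lists could not be scaled to it.

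Intervals on chromosomes 1 to 19 and X were merged where they shared at least 1 bp, giving 124941 regions (median width 693 bp). A region took the strongest interval over it. Each region was assigned to the nearest body of 21631 protein-coding genes (RefSeq table, GRCm38.p6) within 100 kb, which 111989 regions (89.6%) had. Coordinates are 1-based in GRCm38. Loci with a mean of at least 1 open non-member region were tested with limma 3.58.1 in R 4.3.3 (variance trend on, robust off) on log2((open regions + 0.5) / (total + 1) × 100000). The 3 adult groups were in one fit, with Benjamini-Hochberg adjustment over all loci. A difference is in the number of open regions per locus, not in signal or expression, and where a group's libraries hold equal counts only their totals set its spread. The p-values measure the spread between these samples, which may be technical. Steps were tested on simulated data. No genome sequence was at hand, so the planned motif search around summits was replaced by RefSeq promoter windows.

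Named regions were the 10 strongest and 5 weakest by mean rank, the 5 just inside and 5 just outside the rule, and up to 10 open in both Embryo libraries or at a promoter. Named genes were the 15 loci with the most members, up to 4 per list, and Sox9, Gli1, Ptch1, Krt5, Trp63, Krt8 and Epcam. Further list genes were named where they passed the test. A result that the rule covers is not reported here. The members, lists and tests were chosen with earlier results of these data known. Alternatives covered stricter or equal-length lists, other merging and overlap rules, the number of libraries that must be open, pseudocount, scaling, filter, locus reach, the replicate number as a block, and each library left out in turn. Same-numbered K5SmoM2Sox9cKO and WT libraries did not deviate together, so the numbers were not treated as pairs.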

Additional observations from a re-analysis of the deposited data

How the results depend on the processing

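The number of regions stayed within 1.5 times of 1155 under the interval settings tried (823 to 1281), but not all were the same regions: 318 of 823 overlapped the 1155 with −log10 q of at least 5, 536 of 889 with lists of equal length and 752 of 1281 with 50% cover. The number was 3355, in 1944 loci against 735, when 2 of 3 K5SmoM2 libraries had to be open. Leaving out one library gave 1187 to 2439 regions in 757 to 1472 loci. The highest number came without K5SmoM2 2, and the number without K5SmoM2Sox9cKO 1, K5SmoM2Sox9cKO 2 or K5SmoM2 1 (1760, 1932 and 1757) was also over 1.5 times the main one. The share open in at least 1 Embryo library (4.85%) was 2.43% with −log10 q of at least 5, 3.44% with 50% cover of the region and 3.68% to 5.85% without one library. The median rank (0.745) was 0.588 with −log10 q of at least 5, 0.645 with lists of equal length, 0.675 with 50% cover, 0.811 with 2 of 3 K5SmoM2 libraries and 0.730 to 0.797 without one library.

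Loci with a member that were higher in K5SmoM2Sox9cKO than WT (70) numbered 45 with a locus reach of 20 kb and 52 to 69 without one library. Lower ones (25) numbered 9 without scaling, 13 with −log10 q of at least 5 and 15 to 28 without one library, with 15, 15 and 16 without K5SmoM2Sox9cKO 3, WT 1 and WT 3. Over all loci, 412 to 606 were higher and 322 to 497 lower without one library, with 412 higher without K5SmoM2Sox9cKO 2, 324, 322 and 332 lower without K5SmoM2Sox9cKO 2, WT 2 and WT 3, and 259 lower without scaling. Lower calls thus depended on the scaling. With the replicate number as a block, 74 loci with a member were higher and 21 lower, and 582 and 423 over all loci. Same-numbered K5SmoM2Sox9cKO and WT libraries had correlations of deviations of -0.0417, 0.0730 and 0.0189, so they share a number only. Among named loci, 28 alternative values lost the call, 26 gained it and 1002 kept their side, and no direction was reversed in a called value. Calls were lost for Wif1 with −log10 q of at least 5, for Runx2 without scaling, and for Bmp6, Bmpr1b, Cdkn2b, Col4a1, Fam78b and Ptch1 in 2 to 8 of 19 settings. The cause of these changes was not tested. A region just under a caller's threshold counts as closed, and depth is unknown, so closed does not mean inaccessible.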
